A study of Mus musculus with 4 samples.

Results

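Genes for matrix metalloproteinases (MMPs), their tissue inhibitors (TIMPs), ADAMTS and ADAMTS-like proteins and lysyl oxidases were examined by RNA-seq in gonadal white adipose tissue (gWAT) of female mice fed a high-fat diet (HFD). The members were the rows of the deposited table whose symbol begins with Mmp or Timp and a digit or with Adamts, plus Lox and Loxl1 to Loxl4, and Mmp12 was left out of this definition. That gave 52 of 17335 genes, namely 19 MMPs, 4 TIMPs, 19 ADAMTS proteases, 5 ADAMTS-like proteins and 5 lysyl oxidases. Of these 52, 48 reached 0.1 FPKM in at least 1 library and were compared. Adamts13, Adamts18, Adamts20 and Mmp21 did not, with 0.00 to 0.04 FPKM in each library.

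The control group was fl/fl, littermates whose Dnmt1 gene carries loxP sites around exons 4 and 5 but is intact. The AD1KO group carried the same floxed alleles and adiponectin-Cre, which is active mainly in mature adipocytes, so that the other cells of gWAT keep the maintenance DNA methyltransferase that Dnmt1 encodes. Both groups were female and had HFD with 60% of calories from fat for 18 weeks. Their age at the start of the diet is not given in the sources used here. RNA of 4 animals per group was pooled in equal amounts into 1 library, so there is no replicate check and no p-value is given. Each comparison below is between these libraries.

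Collagen fibers are stiffened outside the cell by lysyl oxidases, which oxidize lysines so that neighboring chains become crosslinked. Fibers and proteoglycans are cut by zinc-dependent MMPs and ADAMTS proteases, most of which are made as inactive precursors, and TIMPs block the active enzymes. In adipose tissue this turnover lets adipocytes enlarge and vessels grow, and macrophages, stromal progenitors and adipocytes each make some of these proteins.

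Expression was deposited as FPKM, which corrects fragment numbers for transcript length and sequencing depth, so levels can be compared between genes. The depth, estimated from the spacing of low FPKM values, was about 17680000 reads for fl/fl and 17440000 for AD1KO. Log2 ratios are of FPKM plus 0.01, AD1KO over fl/fl, and genes at -0.5 or below are called lower and those at 0.5 or above higher. Intervals are exact Clopper-Pearson intervals at 95% on the estimated reads and cover counting error only. Dnmt1, the deleted gene, was at 6.99 FPKM in fl/fl and 3.33 FPKM in AD1KO (log2 ratio -1.07).

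Among the 48 members compared, 7 (14.6%) were lower and 10 (20.8%) higher in AD1KO, and 31 lay within 0.5. Of all 15839 genes compared, 19.1% were lower and 14.3% higher. Counting intervals were entirely below -0.5 for Mmp13, Mmp25, Timp1 and Adamts14 (4 members) and above 0.5 for Mmp9, Timp4 and Adamtsl2 (3 members), against 8.30% and 4.19% of all genes. The interval lay below 0 for 15 members (31.3%) and above 0 for 18 (37.5%), where the shares over all genes were 29.0% and 21.5%. In whole tissue, fewer cells of a type and less RNA per cell cannot be told apart. The median log2 ratio of the members was 0.14, and that of all genes was -0.04. Leaving out Mmp7, with about 2 reads in fl/fl and a listing of 0 in AD1KO, the median was 0.15. Upper quartile scaling, which added 0.09 to each log2 ratio, moved no member across 0 and left 12 members with the interval below 0 and 20 above, while the shares over all genes became 22.7% and 27.9%.

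Most of the abundant members lay within the threshold. Among the 28 members at 1 FPKM or more in both libraries, 22 lay within 0.5, 5 (17.9%) were higher and 1 (3.57%), Timp1, was lower. Most of all genes at such levels lay within 0.5 too. Of 12706 genes at 1 FPKM or more in either library, a wider cut, 10.1% were higher and 16.3% lower. Among the 20 others that were compared, 6 were lower and 5 higher, and 14 of the 20 had an interval that held 0. Over all genes compared, without this cut, the shares were larger, with 14.3% higher and 19.1% lower. Genes under the cut thus passed 0.5 more often. The shares of all genes at the levels of these 20 were not computed, so no excess is read from their counts. The plot of levels shows that the 6 highest members of fl/fl, Timp2, Mmp2, Loxl1, Timp1, Mmp14 and Lox, kept ranks from 1 to 6 in AD1KO with the exception of Timp1, which went from rank 4 to rank 9, and Adamts5 moved from rank 8 to rank 4.

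**Figure D1:**
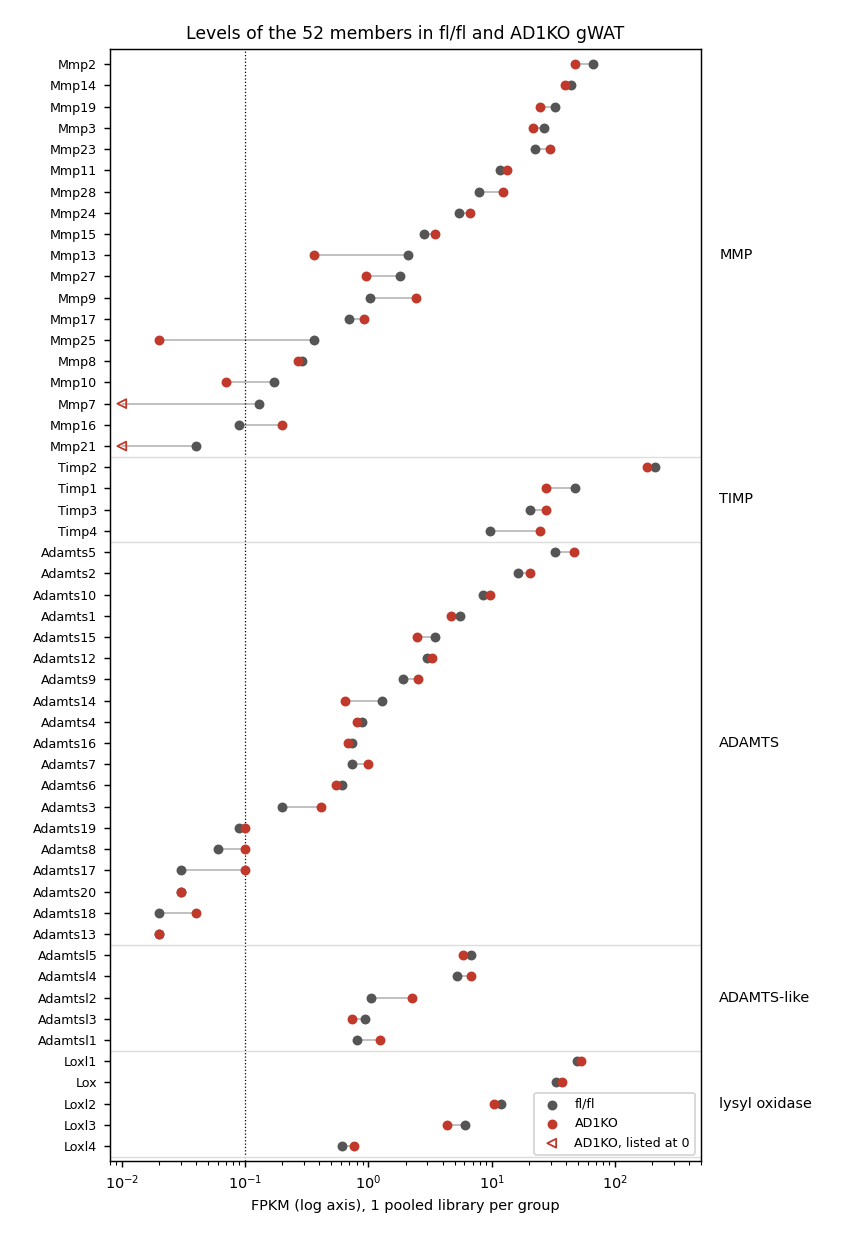
FPKM of each of the 52 members on a log axis, 1 pooled library per group, with fl/fl in grey and AD1KO in red, ordered by family and by the level in fl/fl. The dotted line marks 0.1 FPKM, and open triangles at the left edge mark Mmp7 and Mmp21, which are listed at 0 in AD1KO. Long connecting lines lie at low levels, except those of Timp1 and Timp4.

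The inhibitors split into opposite directions. Timp1 (gene 21857, chromosome X of mm9, 20447292 to 20451861, plus strand), an inducible inhibitor with broad action on MMPs, was at 47.7 FPKM in fl/fl and 27.3 FPKM in AD1KO. Its log2 ratio was -0.80, with an interval from -0.99 to -0.62 from about 662 and 374 reads. Timp4 (gene 110595, chromosome 6, 115195634 to 115201867, minus strand), an inhibitor with a narrow tissue range that includes fat, was at 9.72 FPKM in fl/fl and 24.4 FPKM in AD1KO. That is a 2.51-fold higher level, with a log2 ratio of 1.33 and an interval from 1.17 to 1.48 from about 486 and 1203 reads. Timp4 was thus at 0.204 of the Timp1 level in fl/fl and at 0.894 of it in AD1KO.

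Timp2 and Timp3 differed less. Timp2 (gene 21858, chromosome 11, 118162383 to 118217054, minus strand), which also takes part in activating pro-MMP2 at the cell surface, was the most abundant member, at 209 FPKM in fl/fl and 181 FPKM in AD1KO (log2 ratio -0.21, interval -0.24 to -0.17). Timp3 (gene 21859, chromosome 10, 85763117 to 85812251, plus strand), the inhibitor that binds to the matrix and also acts on ADAMTS proteases, was at 20.2 and 27.6 FPKM (log2 ratio 0.45, interval 0.35 to 0.54). Upper quartile scaling took Timp3 to 0.54, past the threshold. Timp2 made up 72.9% of the summed TIMP FPKM in fl/fl and 69.6% in AD1KO, so the sum, 287 and 261 FPKM, followed it (log2 ratio of the sums -0.14). The exons of Timp3 share 1733 bases with Syn3 on the opposite strand, which was at 0.07 FPKM in each library.

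Of the 18 MMPs compared, 5 (27.8%) were lower, 3 (16.7%) higher and 10 within 0.5, where 19.1% of all genes were lower and 14.3% higher. Of the 5 lower, Mmp7 and Mmp10 had under 10 reads over both libraries. The whole interval lay below -0.5 for 2 MMPs and above 0.5 for 1. Summed FPKM of the MMP members was 226 in fl/fl and 203 in AD1KO (log2 ratio of the sums -0.15), and the sum of MMPs over the sum of TIMPs was 0.787 and 0.780. This balance depends on leaving out Mmp12, the macrophage metalloelastase, which was at 165 FPKM in fl/fl and 61.0 FPKM in AD1KO (log2 ratio -1.44). With Mmp12 the MMP sum was 391 and 264 FPKM, a log2 ratio of -0.56.

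The gelatinases, which cut denatured collagen and basement membrane collagen, went opposite ways. Mmp2 (gene 17390, chromosome 8, 95351227 to 95377316, plus strand), the stromal gelatinase, was the most abundant MMP member at 66.0 FPKM in fl/fl and 47.6 FPKM in AD1KO. Its log2 ratio was -0.47, just inside the threshold, and the interval ran from -0.55 to -0.40. Mmp9 (gene 17395, chromosome 2, 164766280 to 164781350, plus strand), the gelatinase of myeloid cells, was at 1.03 FPKM in fl/fl and 2.43 FPKM in AD1KO, from about 56 and 130 reads. Its log2 ratio was 1.23, with an interval from 0.77 to 1.71. Mmp2 was at 64.0 times the Mmp9 level in fl/fl and at 19.6 times in AD1KO.

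Mmp13 (gene 17386, chromosome 9, 7272514 to 7283333, plus strand), the main collagenase of mice, was at 2.09 FPKM in fl/fl and 0.36 FPKM in AD1KO, from about 95 and 16 reads. It was 5.68-fold lower in AD1KO, with a log2 ratio of -2.50 and an interval from -3.41 to -1.78. Mmp8, the neutrophil collagenase, had about 12 and 11 reads, at 0.29 and 0.27 FPKM. Its interval ran from -1.43 to 1.20, so a difference within that range was not resolved.

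Among the stromelysins, Mmp3, which cuts proteoglycans and activates other pro-MMPs, was at 26.3 FPKM in fl/fl and 21.6 FPKM in AD1KO (log2 ratio -0.29, interval -0.44 to -0.13). Mmp10 had about 5 and 2 reads (log2 ratio -1.17, interval -4.69 to 1.31), an interval that held 0. Mmp11, which is activated inside the cell by furin, was at 11.6 and 13.2 FPKM (log2 ratio 0.19, interval 0.01 to 0.37). The only matrilysin with a row, Mmp7, had about 2 reads in fl/fl and a listing of 0 in AD1KO, which allows up to 3 reads, so no fold is given although it counts among the lower members.

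The membrane-type MMPs act at the cell surface. Mmp14 (gene 17387, chromosome 14, 55050441 to 55060095, plus strand), which activates pro-MMP2 and is itself a collagenase, was at 44.2 FPKM in fl/fl and 39.1 FPKM in AD1KO (log2 ratio -0.18, interval -0.25 to -0.10). The Mmp14 level stood at 0.211 of the Timp2 level in fl/fl and at 0.216 in AD1KO. Mmp25 (gene 240047, chromosome 17, 23766425 to 23782236, minus strand), known as leukolysin from leukocytes, was at 0.36 FPKM in fl/fl and 0.02 FPKM in AD1KO. With about 23 reads against 1, its log2 ratio was -3.62, and its interval from -9.87 to -1.88 shows how little the reads fix its size. Mmp15 and Mmp24 were at 2.81 and 5.39 FPKM in fl/fl and at 3.47 and 6.69 FPKM in AD1KO (log2 ratios 0.30 and 0.31). Mmp16 counted as higher on about 7 and 16 reads, with an interval from -0.15 to 2.74, and Mmp17 was at 0.70 and 0.92 FPKM.

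Among the remaining MMPs, Mmp28 (gene 118453, chromosome 11, 83254270 to 83276573, minus strand), epilysin, was at 7.92 FPKM in fl/fl and 12.3 FPKM in AD1KO (log2 ratio 0.64, interval 0.48 to 0.80). Its exons share 465 bases with 1700020L24Rik on the opposite strand, which was at 9.44 and 14.8 FPKM, and the library protocol describes no step that marks strand, so reads of this stretch cannot be told apart. Mmp27, with about 64 and 34 reads, was at 1.79 and 0.96 FPKM (log2 ratio -0.89, interval -1.54 to -0.27). Mmp19, a widely made MMP, was at 32.3 and 24.7 FPKM (log2 ratio -0.39, interval -0.49 to -0.29). Mmp23, which lacks the usual cysteine switch, was at 22.5 and 29.5 FPKM (log2 ratio 0.39, interval 0.22 to 0.56). Upper quartile scaling left Mmp19 and Mmp23 within 0.5. Exons of Mmp19, Mmp24, Adamts9 and Adamts7 also share 789, 637, 1381 and 122 bases with genes on the opposite strand, and their values are uncertain to that extent.

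**Figure D2:**
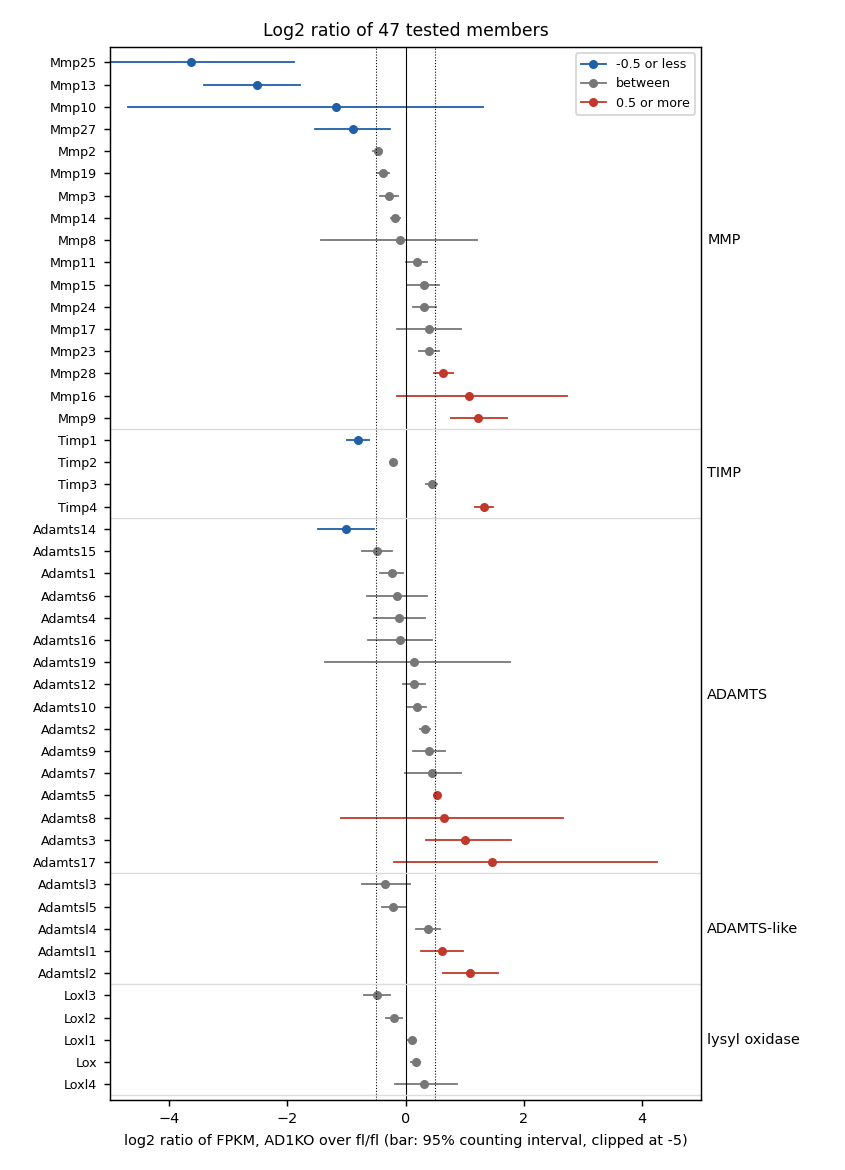
Log2 ratio of FPKM, AD1KO over fl/fl, for 47 of the 48 compared members (Mmp7 is left out because its reads are at or under the limit of a listing of 0), with 95% counting intervals as bars clipped at -5. Blue marks members at -0.5 or less, red those at 0.5 or more, and dotted lines the threshold. Wide bars belong to members with few reads, such as Mmp10, Mmp8 and Adamts17, while Timp1 and Timp4 have narrow bars on opposite sides.

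Several MMP genes lie side by side on chromosome 9, a grouping looked at after the values were seen. The 6 members there, Mmp13, Mmp3, Mmp10, Mmp8, Mmp27 and Mmp7, span 427 kb of mm9 (7272514 to 7699585). Each had a log2 ratio under 0, where 53.8% of all compared genes did. Of the 6, 4 counted as lower, where 19.1% of all genes did. Mmp7 and Mmp10 did so on about 2 and 7 reads over both libraries. The interval lay wholly below 0 for Mmp13, Mmp3 and Mmp27, where it did for 29.0% of all genes. Without Mmp7 the median log2 ratio of the other 5 was -0.89. Their summed level was 30.6 FPKM in fl/fl and 23.2 FPKM in AD1KO, most of it Mmp3, at a log2 ratio of -0.40. This group and its sum hold members only, so Mmp12, left out by the definition, is not in them. At 165 FPKM in fl/fl and 61.0 FPKM in AD1KO (log2 ratio -1.44), Mmp12 alone was above this sum.

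**Figure D3:**
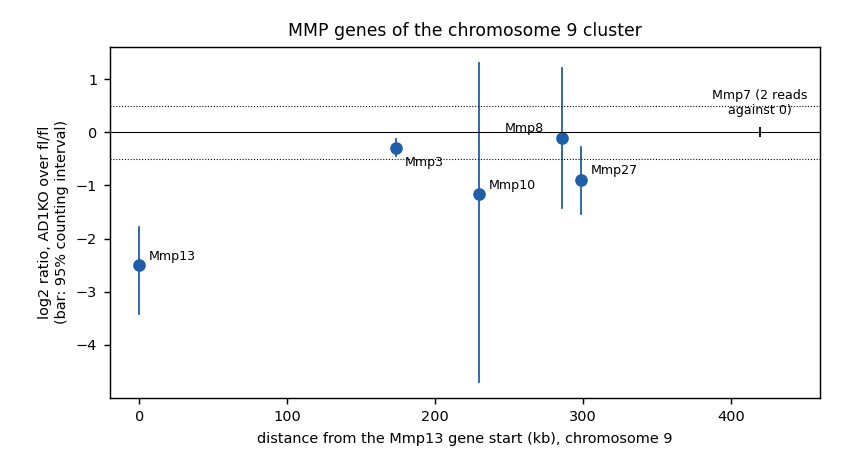
Log2 ratio of the MMP members on chromosome 9 against distance from the start of Mmp13 in kb, with 95% counting intervals as bars. Mmp7 is marked by position only, having about 2 reads in fl/fl and a listing of 0 in AD1KO. The 5 points lie below 0, and the bars of Mmp10 and Mmp8 cross it.

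Promoter windows of 300 bases, from 250 before to 50 after the gene start, were found in RefSeq (GRCm38.p6) for 33 of the 52 members by symbol. They were searched for TGANTCA, the core of the AP-1 site to which Fos and Jun proteins bind and which reads alike on both strands. It was found in 4 of the 33 members (12.1%), counted by gene over their 35 windows. Counted by window, which is another unit, it was found in 7.81% of all 32851. All 4 members, Mmp13, Mmp3, Mmp10 and Mmp7, belong to the chromosome 9 group, with the match starting 35 bases before the gene start in Mmp13, 46 in Mmp3, and 63 in Mmp10 and Mmp7. The last 120 bases before the start, plus strand of GRCm38.p6, are shown for these genes because they hold the motif, in capitals, and have few CpG dinucleotides. They lie at chr9:7272394-7272513 for Mmp13, chr9:7445702-7445821 for Mmp3, chr9:7502222-7502341 for Mmp10 and chr9:7691970-7692089 for the first of the 2 windows of Mmp7.
Mmp13: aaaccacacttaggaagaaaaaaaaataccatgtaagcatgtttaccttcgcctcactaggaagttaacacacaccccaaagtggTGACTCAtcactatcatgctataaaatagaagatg
Mmp3: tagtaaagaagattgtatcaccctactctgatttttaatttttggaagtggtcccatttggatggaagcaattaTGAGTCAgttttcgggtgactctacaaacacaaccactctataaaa
Mmp10: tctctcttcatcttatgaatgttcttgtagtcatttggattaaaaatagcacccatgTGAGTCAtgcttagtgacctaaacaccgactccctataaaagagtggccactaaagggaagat
Mmp7: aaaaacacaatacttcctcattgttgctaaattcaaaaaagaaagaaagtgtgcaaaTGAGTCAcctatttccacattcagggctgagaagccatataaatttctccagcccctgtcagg

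The genes of AP-1 subunits were measured beside them. Fos was at 20.6 FPKM in fl/fl and 8.51 FPKM in AD1KO (log2 ratio -1.28), Junb at 35.8 and 20.5 FPKM (log2 ratio -0.81) and Jun at 23.7 and 16.6 FPKM (log2 ratio -0.51). Jund, Fosl2 and Fosb lay within 0.5, and Fosl1 was at 0.87 and 0.45 FPKM. The part of these subunits in the MMP levels was not tested. A motif match is a description of the sequence, and binding was not measured.

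As the deleted gene encodes a DNA methyltransferase, CpG dinucleotides, the sites that it methylates, were counted in the same windows. They numbered 1 to 46 per window with a median of 19, against a median of 7 over all windows. Mmp7 has a window with 1 CpG, shown above, and another with 7, and was left out of the following split at 5 CpG. Of the 28 other compared members with a window, 6 had under 5 CpG, namely Timp4 and 5 of the chromosome 9 group, Mmp13, Mmp3, Mmp10, Mmp8 and Mmp27. Of these 6, with a median log2 ratio of -0.59, 3 were lower and 1, Timp4, was higher. Mmp10 counted as lower on about 5 and 2 reads, with an interval that held 0. Among the remaining 22, with a median of 0.31, 3 were lower and 4 higher. Over all genes compared, whatever their CpG count, 19.1% were lower and 14.3% higher. As 5 of the 6 lie in the chromosome 9 group, CpG count and place in that group cannot be told apart here. The 120 bases before the start of Adamts14 (chr10:61273420-61273539) and Timp4 (chr6:115252206-115252325) are both shown on the minus strand of GRCm38.p6. They are examples of many and of few CpG among members past the threshold. Their windows of 300 bases hold 44 and 2 CpG, and that of Mmp13 holds 1. CpG is in capitals, and the stretch of Timp4 has none.
Adamts14: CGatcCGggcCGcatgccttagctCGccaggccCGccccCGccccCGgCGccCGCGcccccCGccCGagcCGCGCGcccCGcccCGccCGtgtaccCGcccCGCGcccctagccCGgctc
Timp4: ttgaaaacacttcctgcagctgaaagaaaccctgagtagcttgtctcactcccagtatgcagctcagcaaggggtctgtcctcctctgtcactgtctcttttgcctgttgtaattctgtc

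**Figure D4:**
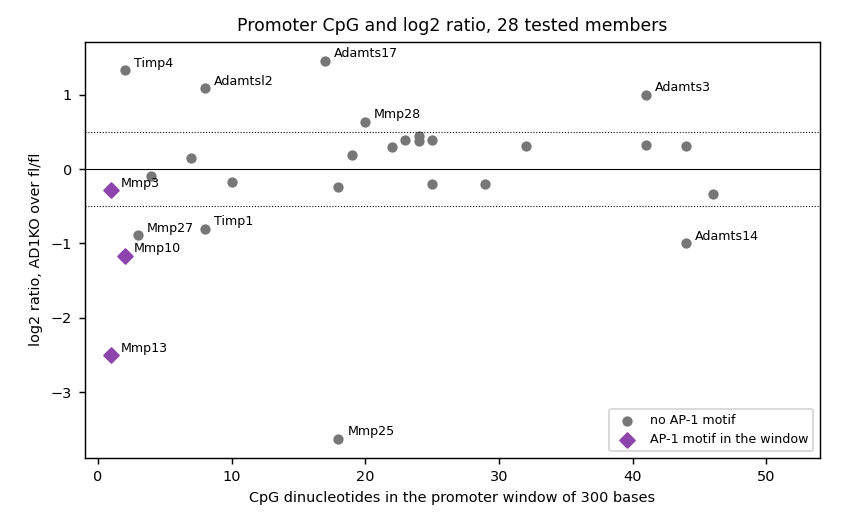
CpG dinucleotides in the promoter window of 300 bases against the log2 ratio of FPKM, AD1KO over fl/fl, for 28 compared members with a window other than Mmp7, taking the window with more CpG for Mmp23, which has 2. Purple diamonds are members whose window holds the AP-1 motif, dotted lines mark 0.5 in either direction, and members past it are named. Under 5 CpG only Timp4 lies above 0, and with more CpG members lie on both sides of 0. DNA methylation of these windows was not measured in these libraries.

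Of 16 ADAMTS proteases compared, 4 (25.0%) were higher and 1 lower, and 11 lay within 0.5, where 14.3% of all genes were higher. The interval held 0 for 8 of the 16, Adamts8 and Adamts17 among them, and lay above 0 for 5 and below 0 for 3. With the whole interval past 0.5 the counts were 0 higher and 1 lower. Their summed level was 75.4 FPKM in fl/fl and 93.9 FPKM in AD1KO, and the summed reads, about 9134 and 11545, gave a higher total in AD1KO (log2 ratio 0.36, interval 0.32 to 0.40). Most of this rested on Adamts5 (gene 23794, chromosome 16, 85858415 to 85901370, minus strand), the major aggrecanase of mice, which was at 32.3 FPKM in fl/fl and 46.5 FPKM in AD1KO (log2 ratio 0.53, interval 0.47 to 0.58). Adamts5 made up 42.8% of the family's FPKM in fl/fl and 49.5% in AD1KO.

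The other proteoglycanases lay on both sides of 0. Adamts15 was at 3.47 and 2.49 FPKM (log2 ratio -0.48, interval -0.74 to -0.23), and Adamts1, an early response gene that cuts versican, was at 5.49 and 4.66 FPKM (log2 ratio -0.24). Adamts9 was at 1.90 and 2.50 FPKM (log2 ratio 0.39, interval 0.12 to 0.67). Adamts4 was at 0.88 and 0.81 FPKM, with an interval that held 0. Adamts8 counted as higher on about 5 and 8 reads, with an interval from -1.10 to 2.66.

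The procollagen N-proteinases, which trim the amino end of fibrillar procollagens, differed among themselves. Adamts2 (gene 216725, chromosome 11, 50415586 to 50621075, plus strand), the most abundant of them, was at 16.2 FPKM in fl/fl and 20.3 FPKM in AD1KO (log2 ratio 0.33, interval 0.24 to 0.41). Adamts3 (gene 330119, chromosome 5, 90102866 to 90312359, minus strand) stood at 0.20 and 0.41 FPKM, from about 26 and 53 reads (log2 ratio 1.00, interval 0.34 to 1.78). Adamts14 (gene 237360, chromosome 10, 60659860 to 60736186, minus strand) stood at 1.29 and 0.64 FPKM, from about 116 and 57 reads, 2.00-fold lower in AD1KO (log2 interval -1.49 to -0.54). Their sum, 17.7 and 21.4 FPKM, was set by Adamts2.

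Among the other ADAMTS members, Adamts12 and Adamts7, which cut cartilage oligomeric matrix protein, were at 2.97 and 0.73 FPKM in fl/fl and at 3.29 and 1.00 FPKM in AD1KO, with intervals that held 0. The log2 ratio of Adamts7, 0.45, became 0.54 with upper quartile scaling. Adamts10, which binds fibrillin microfibrils, was at 8.46 and 9.63 FPKM (log2 ratio 0.19, interval 0.03 to 0.34). Adamts6, Adamts16 and Adamts19 lay within 0.5 with intervals that held 0, and Adamts17 counted as higher on about 3 and 10 reads, with an interval from -0.20 to 4.26.

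ADAMTS-like proteins share the matrix-binding domains of the family but have no protease domain. Of 5, 2 (40.0%) were higher and 3 within 0.5, where 14.3% of all genes were higher. Adamtsl2 (gene 77794, chromosome 2, 26934899 to 26964501, plus strand), which binds latent TGF-beta binding protein and fibrillin, was at 1.05 FPKM in fl/fl and 2.24 FPKM in AD1KO, from about 58 and 122 reads (log2 ratio 1.09, interval 0.63 to 1.57). Adamtsl1 was at 0.81 and 1.24 FPKM (log2 ratio 0.61, interval 0.25 to 0.97). Adamtsl4 was at 5.21 and 6.76 FPKM (log2 ratio 0.38), Adamtsl5 at 6.78 and 5.88 FPKM (log2 ratio -0.21), and Adamtsl3 at 0.94 and 0.74 FPKM with an interval that held 0. The interval of Adamtsl5 ended at -0.01 and no longer lay below 0 under any of the 3 other scalings.

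Each of the 5 lysyl oxidases lay within 0.5, with log2 ratios from -0.49 to 0.31. Loxl1 (gene 16949, chromosome 9, 58135530 to 58161019, minus strand), which crosslinks elastin, was the most abundant at 49.3 FPKM in fl/fl and 53.0 FPKM in AD1KO (log2 ratio 0.10, interval 0.03 to 0.18). Lox (gene 16948), the main collagen crosslinker of the family, was at 33.2 and 37.4 FPKM (log2 ratio 0.17, interval 0.09 to 0.25). Loxl2, which crosslinks basement membrane collagen, was at 11.9 and 10.4 FPKM (log2 ratio -0.20, interval -0.32 to -0.07). Loxl3 (gene 16950, chromosome 6, 82984167 to 83002556, plus strand) stood at 6.11 and 4.36 FPKM (log2 ratio -0.49, interval -0.71 to -0.27). Its exons share 535 bases with Htra2 on the opposite strand, which was at 33.1 and 22.9 FPKM, so its value is uncertain. Loxl4 was at 0.61 and 0.76 FPKM. The family's summed FPKM was 101 in fl/fl and 106 in AD1KO (log2 ratio of the sums 0.07).

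Other genes of matrix turnover were read from 5 lists of 94 symbols chosen for their roles. Of 86 compared, 13 (15.1%) were lower and 15 (17.4%) higher, with a median log2 ratio of 0.06. Over all genes compared, 19.1% were lower and 14.3% higher. The counts of the lists include Dnmt1, the deleted gene, and Esr1. Among 20 activators and regulators of proteolysis, 6 were higher and 3 lower. Pcolce2, which enhances procollagen C-proteinase, was at 41.1 and 99.9 FPKM (log2 ratio 1.28). Plau, the urokinase that starts plasmin formation, was at 64.55 and 41.95 FPKM (log2 ratio -0.62), and its receptor Plaur at 23.3 and 11.3 FPKM (log2 ratio -1.04). The other lower gene, A2m, had 0.11 FPKM in fl/fl against a listing of 0 in AD1KO. Of 11 other metalloproteinases, 4 were higher and 2 lower. Those lower were Adam17 and Adam8, the latter a protease of leukocytes at 84.8 and 36.9 FPKM (log2 ratio -1.20). Those higher were Mme, at 11.2 and 17.7 FPKM (log2 ratio 0.66), Adam33, Adam12 and Mep1b. Mep1b had about 1 and 5 reads and an interval that held 0.

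Among 15 collagen-modifying enzymes and chaperones, 1 was higher and 1 lower. The former was Tgm2, a transglutaminase that also crosslinks matrix, at 106 and 159 FPKM (log2 ratio 0.58), and the latter was Plod2, which hydroxylates telopeptide lysines ahead of crosslinking, at 5.84 and 3.70 FPKM (log2 ratio -0.66). Of 26 substrates and fibril proteins, 3 were higher and 0 lower, among them Fmod, which guides collagen fibril growth and crosslinking, at 12.7 and 21.6 FPKM (log2 ratio 0.77). The interval lay below 0 for 7 of the 26, such as Postn at 118 and 87.8 FPKM (log2 ratio -0.43), and above 0 for 12. Among 14 regulators, 7 were lower and 1, Esr1, was higher, at 4.82 and 8.44 FPKM (log2 ratio 0.81). Tgfb1, an inducer of matrix genes, was at 101 and 56.4 FPKM (log2 ratio -0.84).

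Markers of the cell types in gWAT were read beside the members. Adipocyte markers, which check the labelled tissue, were at 245 to 11151 FPKM in fl/fl, and 7 of 8 were higher, with a median log2 ratio of 0.69 and a summed level of 21852 FPKM in fl/fl and 35481 in AD1KO. Macrophage markers were lower for 10 of 11 (median -0.98, summed level 4231 and 2063 FPKM), with Cd163 within 0.5. T and NK cell markers were lower for 7 of 7 (median -1.85, summed level 88.8 and 24.3 FPKM). The adipocyte list was higher in AD1KO, as Timp4 was, and the macrophage and T and NK cell lists lower, as Timp1, Mmp13 and Mmp25 were. Other lists shared these directions. Smooth muscle and pericyte markers (median 1.03) and mesothelial markers (median 0.79) were higher too, and reproductive tract epithelium markers (median -2.30) lower. Mmp9, a gelatinase of myeloid cells, was higher while macrophage markers were lower. These lists' part in the members' values was not tested.

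Stromal progenitor markers were mixed, with 3 of 10 lower and 1 higher (median 0.04, summed level 1214 and 1021 FPKM), and among them Ly6a was at 390 and 158 FPKM. Summed reads of this list, about 74277 and 76995, went the other way from its summed FPKM (log2 ratio 0.07, interval 0.06 to 0.09). Smooth muscle and pericyte markers were higher for 4 of 6 (median 1.03, summed level 248 and 425 FPKM) and mesothelial markers for 6 of 6 (median 0.79, summed level 87.2 and 162 FPKM), while 0 of 6 endothelial markers passed the threshold (median 0.30, summed level 73.2 and 85.7 FPKM). Neutrophil markers, which bear on Mmp8, Mmp9 and Mmp25, went both ways, with 4 of 8 lower and 3 higher (median -0.39). For 5 of the 8, Ngp, Elane, Camp, Cxcr2 and Retnlg, the interval held 0. The summed level of the neutrophil list, 46.0 and 65.4 FPKM, followed S100a8, at 32.7 and 57.3 FPKM. Its summed reads, about 585 and 497, went the other way (log2 ratio -0.22, interval -0.39 to -0.04). Of reproductive tract epithelium markers 5 of 8 compared were lower (median -2.30, summed level 24.6 and 13.8 FPKM), and Pax8 and Foxj1 are listed at 0 in AD1KO. What these lists contribute to the members was not tested either.

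**Figure D5:**
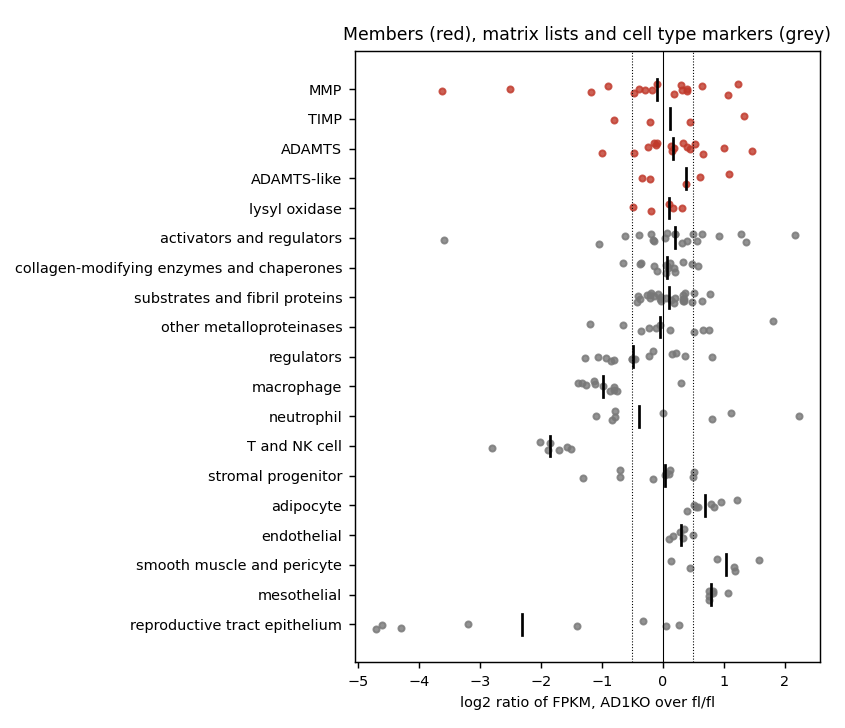
Log2 ratio of FPKM, AD1KO over fl/fl, per gene for the families of members (red, Mmp7 left out) and for the lists of other matrix genes and cell type markers (grey), with the median of each as a black bar and dotted lines at 0.5 in either direction. Genes listed at 0 in AD1KO, such as Pax8, are drawn at a ratio set by the added 0.01 FPKM. The member families center near 0, except ADAMTS-like with a median of 0.38. Macrophage and T and NK cell markers lie to the left except Cd163. Neutrophil markers lie on both sides, and adipocyte and mesothelial markers lie to the right.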

How the data were processed

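Poly(A) RNA was sequenced on BGISEQ-500 and clean reads were aligned to mm9. Poly(A) selection and platform are per the labels. The aligner and the quantification program are not given in the sources used here. The authors deposited FPKM for both libraries in 1 table, with 0 written as 0.01. The table also holds the authors' own fold changes, P values and FDR, which were not used. The columns were matched to fl/fl and AD1KO by library name. Libraries made by RRBS were not analysed here.

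Values of 0.01 were set to 0, 0.01 FPKM was added, and genes that reached 0.1 FPKM in either library were compared at the log2 ratio of 0.5 that the study's methods use. A listing of 0 was taken to allow up to 3 reads. Intervals cover counting error only, as no molecular identifiers are described. Reads were recovered from FPKM without P values: low values times transcript length less 116 bases fall on multiples of 1 step, within 0.2 of a whole read for 86.9% of 746 low values in fl/fl and 85.8% of 754 in AD1KO. Over both libraries together, compared genes had a median of 571 reads and 921 of them had under 10. The steps were tested on simulated data.

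Members and lists were chosen with earlier results of these data known. Values were to be given for the 38 members with 1 FPKM in a library or past the threshold with 10 reads. For some of them only part of FPKM, log2 ratio and interval is printed, and other members are given by name or in brief. The values of 1 gene of the matrix lists are not reported here. No test was run, as there is 1 library per group. Exon overlaps, found for 10 members, and positions are from GENCODE M1 (mm9), and promoters are from RefSeq (GRCm38.p6). Alternatives were other pseudocounts, filters, scalings and thresholds, with trims of 30% of ratios and 5% of levels for trimmed mean of M-values. Computation used Python 3.11.15 with pandas 2.3.3, NumPy 2.4.6 and SciPy 1.17.1, and drawing used Matplotlib 3.10.9.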

Additional observations from a re-analysis of the deposited data

How the results depend on the processing

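No paired analysis was possible because each group is a single pool of RNA, and no replicate could be left out. Against 7 lower and 10 higher members, a pseudocount of 1 FPKM gave 3 and 5, a minimum of 1 FPKM 4 and 6, and a counting interval wholly past 0.5 left 4 and 3, while a threshold of 1 gave 6 higher. Counts fell over all genes too: the shares lower and higher, 19.1% and 14.3% as reported, were 10.5% and 6.09% with the pseudocount, 16.3% and 10.1% with the minimum and 8.30% and 4.19% with the interval, and 5.8% were higher at the threshold of 1. With the pseudocount of 1 FPKM the log2 ratios of Mmp25, Adamts14, Adamts3 and Adamtsl1 were -0.41, -0.48, 0.23 and 0.31. A larger pseudocount shrinks the ratios of low genes, and a stricter minimum or threshold removes genes by construction. Lower MMPs, 5 as reported, were 2 with a pseudocount of 1 FPKM, a minimum of 1 FPKM or the whole interval, and 3 with at least 10 estimated reads, a setting added after the data were seen. Higher MMPs went from 3 to 1 with the whole interval. Lower ADAMTS members went from 1 to 0 with a pseudocount of 1 FPKM. Higher ADAMTS members, 4 as reported, were 1 with a pseudocount of 1 FPKM or a minimum of 1 FPKM, 2 with a threshold of 1 and 0 with the whole interval. Higher ADAMTS-like members went from 2 to 1 with a pseudocount of 1 FPKM, a threshold of 1 or the whole interval. Higher TIMPs became 2 with upper quartile scaling, and lower TIMPs 0 with a threshold of 1. In the matrix lists, 13 lower and 15 higher genes became 5 and 4 with a threshold of 1, and 9 were higher with the whole interval. Over all genes, upper quartile scaling changed the share of lower calls from 57.2% to 48.3%. All 17 members past the threshold stayed past it under each of the 3 other scalings, and none changed sign there. Depth limits the low members: 2 of the 48 compared, Mmp7 and Mmp10, had under 10 reads over both libraries.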
